A study of Mus musculus with 3 samples.

Results

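Natural Killer (NK) cells of the lung were compared with NK cells of the blood, 6 h after tumor cells had been injected into the circulation. Both tissues came from wild-type, female, 9-week-old mice that had received intravenous PyMT mammary tumor cells, and live NK1.1+NKp46+ cells of each tissue were sorted. Before sorting, cells of each tissue were labelled with a hashtag antibody, so that lung and blood could share 1 droplet library (10x Genomics 3ʹ chemistry) and still be told apart. A barcode counted as a cell when 800 to 5000 genes were detected in it and no more than 6% of its counts were mitochondrial. A cell was called lung where hashtag B0304 made up 90% or more of the 2 tags' counts, and blood where B0306 did. This gave 4680 lung cells and 2746 blood cells, 7426 of the 7584 cells kept in this library and of the 21754 kept over the 3 libraries of the series (naive, 6 h and 14 days). The 2 tissues thus shared genotype, sex, age, injection and library. They did not share their preparation, because lungs were perfused, minced and digested warm with collagenase, whereas blood was drawn before perfusion and freed of red cells in the cold. Tissue and preparation cannot be told apart in these data.

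NK cells are innate lymphocytes that kill tumor cells with granzymes and perforin and secrete interferon-γ. In mice they mature from a CD27-high stage towards a CD11b-high stage (CD11b is encoded by Itgam), and the mature cells dominate in blood and in the vessels of the lung. Cells that enter or are retained in a tissue are known to change their chemokine and S1P receptors, and lymphocytes that receive a signal switch on immediate early genes such as Fos and Jun within minutes. The comparison asks which genes of NK cells differ between the organ where the injected cells lodge and the blood that feeds it.

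Lung cells held 35922737 UMIs in all, with a median of 7005 per cell, and blood cells 22077755, with a median of 7465. The median mitochondrial share was 3.29% and 3.12%. The tags separated well, at medians of 1187 against 9 counts in lung cells and 12 against 1708 in blood cells. A further 158 cells (2.08%) carried both tags and were left out. From their share, about 2.39% of the 7584 kept cells would be doublets within a tissue, which stayed in. Which tag stands for which tissue was read from the methods, where both are listed in the same order, and from nothing else. Several mice were used and the tags do not tell them apart, so the cells of a tissue are 1 sample and no test between the tissues was possible. Values below are summed UMI counts scaled to 1000000 per tissue (CPM), shares of cells after each cell was thinned to 3000 UMIs, and ratios of CPM. Their 95% intervals are exact and cover counting error only. With other libraries of the series this one shared 16 (naive) and 6 (14 days) cell barcodes.

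The sorted cells were NK cells by their markers in both tissues. Ncr1, which encodes the sorted receptor NKp46, had UMIs in 99% of lung and 99.7% of blood cells before thinning, and Nkg7 in 99.9% and 99.9%. Markers of neutrophils, erythroid cells, platelets, lung epithelium and fibroblasts summed to between 0.0453 and 2.54 CPM per list. For lung epithelium 3 of 6 markers were at 0 in both tissues, and for fibroblasts 3 of 4. The 8 markers of monocytes and macrophages summed to 60.3 CPM in lung and 116 in blood, with 1 of them at 0 in both. T cell markers summed to 483 and 501 CPM, B cell markers to 41.3 and 50.2, endothelial markers to 58.7 and 69.9 and ILC1 markers to 55.6 and 62 in lung and blood, and some genes of these lists are made by NK cells too. Cells without a UMI of any of 41 low markers of other cell types gave 211 lung and 20 blood genes in the comparison that follows, a check chosen after the data had been seen. Lyz2, a lysozyme gene of myeloid cells, made up 26.1 CPM in lung and 44.9 in blood of this, and 2 lung cells held 97.7% of its UMIs in lung while 2 blood cells held 99.5% in blood. Free RNA in the droplets could make up at most 3.96% of counts, a limit that rests on the B cell gene Ms4a1 alone (17 UMIs in lung and blood cells, 82 in barcodes with at most 100 UMIs).

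At 2-fold or more, far more genes were higher in lung NK cells than in blood NK cells. Genes entered the comparison at a minimum of 20 CPM in the tissue with more. Of 6589 such genes, 212 (3.22%) were at least 2-fold higher in lung and 19 (0.288%) at least 2-fold higher in blood. Among the 212 genes the median fold was 2.98, 69 were at least 4-fold and 22 at least 8-fold higher. None of the 19 blood genes reached 4-fold, and their median was 2.4-fold. The median log2 ratio over all genes tested was -0.090, so most genes lay slightly on the blood side while the strong differences lay on the lung side. With totals scaled by TMM factors this median was 0.022, so the slight shift to blood depends on the scaling. These counts describe the cells sequenced, since the spread between mice was not measured.

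**Figure D1:**
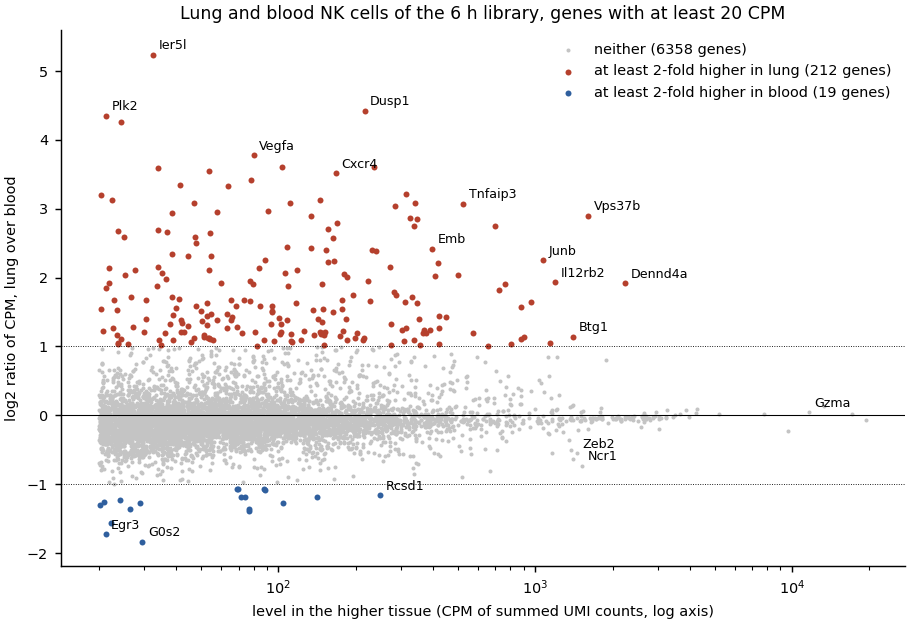
Each point is 1 of 6589 genes of the 6 h library, with the CPM in the higher tissue on the x axis (log axis) and the log2 ratio of CPM of lung over blood on the y axis, and dotted lines at 2-fold. The 212 lung genes reach a log2 ratio of 5.24 (Ier5l) and include genes above 1000 CPM such as Vps37b and Dennd4a, while the 19 blood genes end at -1.84 (G0s2).

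The 15 genes with the highest ratio were mostly of low level in blood. Ier5l (ENSMUSG00000089762, chromosome 2 from 30471537 to 30474219 of GRCm38), a gene of the immediate early response family, had 32.5 CPM (95% CI 30.6 to 34.4) in lung and 0.861 CPM (95% CI 0.518 to 1.34) in blood, a log2 ratio of 5.24 (95% CI 4.59 to 5.98). Dusp1 (ENSMUSG00000024190, chromosome 17 from 26505590 to 26562128) encodes a phosphatase that switches off MAP kinases, and it had 217 CPM (95% CI 212 to 221) in lung and 10.1 CPM (95% CI 8.82 to 11.5) in blood, 21.4-fold more in lung. It was found in 39.8% of lung and 2.9% of blood cells, whereas free RNA could account for at most 2.27% of cells. Plk2 (ENSMUSG00000021701, chromosome 13 from 110395046 to 110400844), a stress-induced polo-like kinase, had 21.3 CPM in lung and 1.04 in blood, and Gcnt2, an enzyme that branches glycans, had 24.4 CPM in lung and 1.27 in blood. The angiogenic growth factor gene Vegfa (ENSMUSG00000023951, chromosome 17 from 46016993 to 46032369) had 79.98 CPM in lung and 5.84 in blood and was found in 16.9% of lung and 1.83% of blood cells. For Ier5l, Dusp1 and Vegfa, lung and blood levels were thus far apart, and each gene had UMIs in a minority of the thinned lung cells (62.1% of lung and 6.63% of blood cells for Dusp1 before thinning). The size of the fold also depends on free RNA, which these intervals do not cover. With free RNA subtracted at its upper limit, the log2 ratio of Dusp1 moved from 4.42 to 6.42. Those of Plk2 and Vegfa moved to 5.26 and 4.63. For Ier5l that limit exceeded the whole blood count, which was then set to 3 UMIs. Its log2 ratio of 7.82 after subtraction rests on this floor and is not an estimate.

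The other 10 of these 15 genes lay between log2 3.20 and 3.61. Abcb1b, a drug efflux pump of the P-glycoprotein family, had 236 CPM in lung and 19.3 in blood. Sik1, a kinase induced by cAMP, had 103 CPM in lung and 8.47 in blood and Bambi, a decoy receptor of the TGF-β family, had 33.9 CPM in lung and 2.81 in blood. Cables1, which binds cyclin-dependent kinases, had 53.6 CPM in lung and 4.57 in blood, and Cxcr4 (ENSMUSG00000045382, chromosome 1 from 128588199 to 128592293), the receptor for CXCL12, had 168 CPM (95% CI 164 to 172) in lung and 14.6 CPM (95% CI 13.1 to 16.3) in blood. These were followed by the AP-1 gene Fos (77.9 CPM in lung and 7.29 in blood), the Rac exchange factor Dock4 (41.5 CPM in lung and 4.08 in blood), the amino acid transporter Slc16a10 (63.6 CPM in lung and 6.3 in blood), Litaf (315 CPM in lung and 33.7 in blood) and the myosin Myo16 (20.5 CPM in lung and 2.22 in blood). Litaf was the most abundant of the 15 and was found in 54.1% of lung and 8.44% of blood cells. Bambi and Cxcr4 moved to log2 ratios of 4.64 and 4.24 with free RNA subtracted. In none of these 15 genes did the interval of the blood level reach that of the lung level, which follows largely from their choice by ratio.

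Abundant genes differed too. Vps37b, a subunit of the ESCRT sorting complex, had 1607 CPM (95% CI 1594 to 1620.5) in lung and 216 CPM (95% CI 209.5 to 222) in blood and was found in 95% of lung and 43.7% of blood cells. Dennd4a had 2243 CPM in lung and 593 in blood, Btg1, an antiproliferative gene of resting lymphocytes, had 1402 CPM in lung and 637 in blood, and Ern1, the stress sensor of the endoplasmic reticulum, had 698 CPM in lung and 104 in blood. Vps37b, Dennd4a and Ern1 were chosen after their values were seen, for their level, and the 1.14 of Btg1 on the log2 scale was among the smaller ratios past the fold.

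Immediate early genes stood out as a group. Of 22 genes listed, 19 were measured at 20 CPM or more. Of these, 12 were at least 2-fold higher in lung (3.22% over all genes) and 1 in blood (0.288% over all genes). Their median log2 ratio was 1.57, against -0.090 over all genes. The AP-1 genes Fosl2 (156 CPM in lung and 23.8 in blood), Junb (1075 CPM in lung and 225 in blood), Jun (109 CPM in lung and 29.6 in blood) and Fosb (25.2 CPM in lung and 6.11 in blood) were higher in lung, as was Fos. Junb was found in 83.3% of lung and 43.4% of blood cells. All 3 genes of the NR4A nuclear receptors, which are induced by receptor and cAMP signals, were past the fold, Nr4a2 with 337 CPM (95% CI 331 to 343) in lung and 50.2 CPM (95% CI 47.3 to 53.3) in blood, Nr4a1 with 179.9 CPM in lung and 43.2 in blood and Nr4a3 with 176 CPM in lung and 55.4 in blood. Further members past the fold were Dusp1, Btg2 (879.9 CPM in lung and 297 in blood), Ier2 (389.7 CPM in lung and 164 in blood) and Klf6 (274 CPM in lung and 135 in blood), the last at a log2 ratio of 1.03, just over the line.

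Not every immediate early gene followed. Egr3 went the other way, with 6.4 CPM (95% CI 5.6 to 7.29) in lung and 21.2 CPM (95% CI 19.4 to 23.3) in blood, and was the second most blood-shifted of all genes tested. Its relative Egr1 had 20.7 CPM in lung and 33.2 in blood (log2 ratio -0.68 (95% CI -0.83 to -0.53)) and Myc had 22.9 CPM in lung and 27 in blood. Jund (785 CPM in lung and 527 in blood), Ier5 (243 CPM in lung and 173 in blood), Dusp2 (282 CPM in lung and 207 in blood) and Zfp36 (55.5 CPM in lung and 49.4 in blood) stayed under 2-fold. Egr1 and Egr3 thus had ratios below 0, while the FOS, JUN and NR4A genes had ratios above 0. Atf3, which lay under 20 CPM in both tissues and was not counted, had 9.88 CPM in lung and 1.4 in blood.

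**Figure D2:**
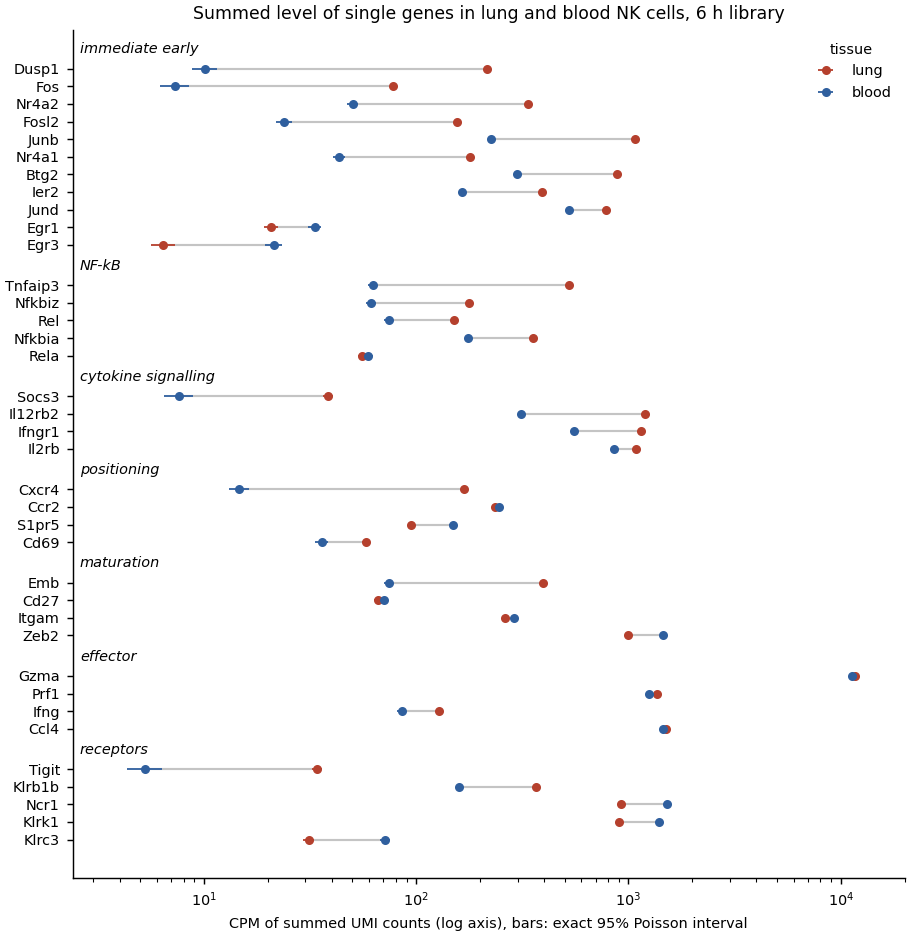
Summed level in CPM (log axis) of single genes in lung (red) and blood (blue) NK cells of the 6 h library, grouped by role, with bars for the exact 95% Poisson interval. Dusp1 runs from 10.1 CPM in blood to 217 in lung, whereas Gzma (11292 and 11619 CPM) and Cd27 (70.2 and 66.1 CPM) have points that nearly coincide, and Egr3 and Klrc3 have their blood point on the right.

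Promoters of lung genes were searched for 2 short motifs, to show the sequence around the start of genes that moved together. Of the 212 lung genes, 167 had a promoter in the RefSeq table (GRCm38.p6, 250 bases before to 50 after the start). The full cAMP response element TGACGTCA, which reads the same on both strands, was found in 10 of the 167 (5.99%), against 213 of 5356 genes tested with a promoter (3.98%) and 2.03% of all 27025 promoters. An NF-kB motif (GGG, any 2 bases, then TTTCC) was searched on both strands and found in 7 of 167 (4.19%), against 2.04% of genes tested. A match describes the letters only and does not show that a factor binds there. Of 12 blood genes with a promoter, 1 held each motif (8.33%), Arl4d the first and Bcl2l1 the second, and no difference between lung and blood genes is read from these counts. The genes with the first motif were Arl5b, Btg2, Dusp1, Ell2, Epb41, Errfi1, Plk2, Ppp1r15a, Trp53inp2 and Zfp874b, and those with the second were Arl5b, Dusp5, Neurl3, Nfkbia, Polg2, Rel and Tnfaip3. The stretches of 4 of them, upstream of the RefSeq start site and 5′ to 3′ on the gene's strand, are shown with the motif in capitals. Those of Dusp1 and Tnfaip3 lie within the GENCODE spans given for these genes in the text, since the 2 annotations place the start differently.
Dusp1 (chr17:26508583-26508640, minus strand, GRCm38.p6): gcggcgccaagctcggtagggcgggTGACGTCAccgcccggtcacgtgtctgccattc
Plk2 (chr13:110394957-110395014, plus strand, GRCm38.p6): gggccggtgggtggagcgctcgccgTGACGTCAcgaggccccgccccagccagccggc
Ppp1r15a (chr7:45526269-45526305, minus strand, GRCm38.p6): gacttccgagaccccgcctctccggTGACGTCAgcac
Tnfaip3 (chr10:19015411-19015447, minus strand, GRCm38.p6): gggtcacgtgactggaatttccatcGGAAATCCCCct
In Dusp1 the motif began 143 bases before the start and in Plk2 62 bases, while in Ppp1r15a and Tnfaip3 it began 12 bases before it. Ppp1r15a, which encodes a phosphatase subunit of the stress response (GADD34), had 91.3 CPM in lung and 11.7 in blood.

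Genes of the NF-kB pathway were led by a single feedback gene. Of 14 genes, all measured, 4 were at least 2-fold higher in lung (3.22% over all genes) and none in blood. Their median log2 ratio was 0.66. The largest difference was in Tnfaip3 (ENSMUSG00000019850, chromosome 10 from 19000910 to 19015657), which encodes A20, the enzyme that ends NF-kB signalling. It had 524 CPM (95% CI 516 to 531) in lung and 62.2 CPM (95% CI 58.9 to 65.6) in blood and was found in 70.8% of lung and 15.2% of blood cells. The inhibitor genes Nfkbiz (177 CPM in lung and 60.9 in blood) and Nfkbia (356 CPM in lung and 175 in blood) and the subunit gene Rel (151 CPM in lung and 74.2 in blood) were also past the fold. Rel and Nfkbia had log2 ratios of 1.03 and 1.02 and fell below 2-fold in 4 of 10 other ways of processing. The subunit gene Rela had 55.3 CPM in lung and 59.1 in blood, and Relb, Birc3, Traf1 and Nfkb1 had log2 ratios between 0.44 and 0.91.

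Targets of the glucocorticoid receptor were also shifted to lung. Of 10 genes, 9 were measured, 5 were at least 2-fold higher in lung (3.22% over all genes) and none in blood. Their median log2 ratio was 1.10. Sgk1, a kinase of ion transport and survival, had 133 CPM (95% CI 129.7 to 137) in lung and 24.8 CPM (95% CI 22.7 to 26.9) in blood. The clock gene Per1 had 33.7 CPM in lung and 9.15 in blood, Tsc22d3, which encodes the anti-inflammatory protein GILZ, had 173 CPM in lung and 78.2 in blood and Klf9 had 34.2 CPM in lung and 16 in blood. Dusp1 belongs to this list as well and is counted in it. Fkbp5, a standard target of the receptor, did not share the direction, with 94.5 CPM in lung and 125 in blood, and the receptor gene Nr3c1 had 303 CPM in lung and 226 in blood. Among 7 genes of RNA decay and binding 1 was past the fold, Zfp36l2, which destabilizes AU-rich transcripts (965 CPM in lung and 308 in blood).

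Cytokine receptors of lung cells included several at high level. Of 18 genes for cytokine receptors and their feedback, 14 were measured and 4 were at least 2-fold higher in lung (3.22% over all genes). Il12rb2, the signalling chain of the IL-12 receptor, had 1195 CPM in lung and 313 in blood and was found in 88.1% of lung and 54.7% of blood cells. Ifngr1, a chain of the interferon-γ receptor, had 1145 CPM in lung and 555 in blood and Il21r had 54.3 CPM in lung and 25.2 in blood. The feedback inhibitor Socs3 had 38.5 CPM in lung and 7.61 in blood, a log2 ratio of 2.34, and Stat3, which induces it and was chosen after its value was seen, had 760.1 CPM in lung and 203 in blood. Chains that are shared or constant in NK cells differed less, with 1081 CPM in lung and 854 in blood for Il2rb, 444 CPM in lung and 465 in blood for Il18r1 and 351 CPM in lung and 322 in blood for Il2rg.

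Transcription factors that set NK cell identity stayed within 2-fold with 1 exception, as most genes did. Over all genes 3.22% were past the fold in lung and 0.288% in blood. Of 18 listed, 17 were measured, and Nfil3, which is needed for NK cell development, was the member past the fold (62.9 CPM in lung and 26 in blood, log2 ratio 1.27 (95% CI 1.14 to 1.41)). Eomes (249 CPM in lung and 242 in blood) and Tbx21 (337 CPM in lung and 432 in blood), the T-box factors that define NK cells, differed by a log2 ratio of 0.040 and -0.36. Zeb2, a factor of terminal maturation, had 990.3 CPM in lung and 1449.7 in blood. The largest ratios under the line were 0.84 for Irf8 (1215 CPM in lung and 678 in blood) and -0.80 for Ikzf3 (380.3 CPM in lung and 664 in blood), which point in opposite directions. Among 14 listed checkpoint and costimulation genes 8 were measured. Of these only Icos was past the fold (54.6 CPM in lung and 11 in blood), while Tnfrsf9 and Fasl had log2 ratios of 0.79 and 0.85. The list left out the checkpoint ligand genes Cd274 and Pdcd1lg2, which were also past the fold in lung. Both were chosen after their values were seen, and Cd274 fell below 2-fold in 1 of 10 other ways of processing. Tigit, past the fold as well, is counted with the NK receptors below.

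Receptors for position in tissue or blood stayed under 2-fold apart from Cxcr4, as most genes did (3.22% past the fold in lung and 0.288% in blood). Among 10 chemokine receptors 6 were measured, and Ccr2 (234 CPM in lung and 246 in blood), Cx3cr1 (84.7 CPM in lung and 85.2 in blood), Cmklr1 (29.6 CPM in lung and 40.7 in blood) and Cxcr3 (17.4 CPM in lung and 25.4 in blood) lay within 2-fold. Cxcr4 was found in 31.7% of lung and 3.6% of blood cells. None of 9 measured egress genes was past the fold. Cd69, which holds lymphocytes in tissue by removing S1PR1 from the surface, had 58.1 CPM in lung and 35.8 in blood, and S1pr5, the S1P receptor by which NK cells leave tissues, had 94.9 CPM in lung and 148 in blood. Of 11 measured integrin subunits none was past the fold, and 9 had a ratio below 0, as had 4455 of all 6589 genes. Their median log2 ratio was -0.18 and -0.066 with TMM factors, under which Itgb2 and Itgb7 changed sign. Itga4, a chain of VLA-4, had 972 CPM in lung and 1378 in blood, Itgal and Itgb2, the chains of LFA-1, had 415 CPM in lung and 482 in blood and 567 CPM in lung and 594 in blood, and Itga5 had the lowest ratio (12.6 CPM in lung and 24.3 in blood).

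Genes that mark stages of NK cells did not shift as a set. The 6 genes that the study uses for differentiated cells had a median log2 ratio of 0.016, with none past the fold. Itgam had 262 CPM in lung and 289.8 in blood, the granule genes Gzma, Gzmb and Prf1 had 11619 CPM in lung and 11292 in blood, 1239.9 CPM in lung and 1009.6 in blood and 1364 CPM in lung and 1248 in blood. Of 7 genes for less differentiated cells 2 were past the fold in lung (3.22% over all genes), Cxcr4 and Emb. Emb, a chaperone of monocarboxylate transporters, had 397 CPM (95% CI 390.1 to 403) in lung and 74 CPM (95% CI 70.5 to 77.7) in blood. Others of that list were Cd27 (66.1 CPM in lung and 70.2 in blood), Cd28 (60.2 CPM in lung and 41.6 in blood) and Thy1 (56.2 CPM in lung and 65.5 in blood). The 3 genes for activated cells stayed under 2-fold, at 127 CPM in lung and 85.3 in blood for Ifng, 263 CPM in lung and 263 in blood for Ccl3 and 1504 CPM in lung and 1458 in blood for Ccl4. These lists were taken from the study, which chose them on these libraries, so they are no independent evidence of a direction.

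Genes linked to residency and TGF-β were mixed at 6 h. Of 5 genes 4 were measured, and 1 was past the fold in lung (3.22% over all genes). It was Pmepa1, a feedback inhibitor of TGF-β signals, with 35.3 CPM (95% CI 33.4 to 37.3) in lung and 8.42 CPM (95% CI 7.26 to 9.73) in blood. Smad7 had 140.1 CPM in lung and 79.99 in blood, Tgfb1 172 CPM in lung and 112 in blood and Ski 67.3 CPM in lung and 75.5 in blood. Itga1, which encodes the residency marker CD49a, lay under 20 CPM (12.2 CPM in lung and 16.8 in blood). Of 19 granule genes 14 were measured, and Serpinb9, the inhibitor that shields a cell from its own granzyme B, was past the fold (877 CPM (95% CI 867 to 887) in lung and 407 CPM (95% CI 398 to 415) in blood).

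Among 20 NK receptor genes outside the Ly49 family, all measured, 2 were past the fold in lung (3.22% over all genes) and 1 in blood (0.288% over all genes). Of these 20 genes 17 had a ratio below 0, where 4455 of all 6589 genes had one. Their median log2 ratio was -0.30, against -0.090 over all genes. Ncr1 had 920.1 CPM (95% CI 910.2 to 930.0) in lung and 1526 CPM (95% CI 1509 to 1542) in blood, Klrk1, which encodes NKG2D, had 899.8 CPM in lung and 1397 in blood, and Cd226 had 89 CPM in lung and 135 in blood. Klrc3 was past the fold on the blood side (31.2 CPM in lung and 71.2 in blood). Past the fold on the lung side were the inhibitory receptor genes Tigit (34 CPM (95% CI 32.1 to 35.9) in lung and 5.25 CPM (95% CI 4.34 to 6.3) in blood) and Klrb1b (365 CPM in lung and 159 in blood). Tigit competes with Cd226 for the same ligands, and the log2 ratios of this inhibitory and this activating receptor were 2.69 and -0.60. Of 9 measured Ly49 genes none was past the fold. Their median log2 ratio was -0.24, 8 were below 0, of which Klra8 and Klra9 turned above 0 with TMM factors, and the lowest was Klra10 (19.2 CPM in lung and 34.7 in blood). Ly49 and Klrc genes are near-identical copies whose reads may be split or lost, so single values of these families are uncertain.

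The 19 genes higher in blood were mostly of low level. G0s2 (ENSMUSG00000009633, chromosome 1 from 193272161 to 193273217), which encodes an inhibitor of triglyceride breakdown, had the lowest ratio of all genes, with 8.27 CPM (95% CI 7.35 to 9.26) in lung and 29.5 CPM (95% CI 27.3 to 31.9) in blood, 3.57-fold more in blood. It was found in 2.56% of lung and 8.62% of blood cells. Rcsd1, which encodes a regulator of the actin capping protein, was the most abundant (112 CPM (95% CI 108 to 115) in lung and 249 CPM (95% CI 243 to 256) in blood), followed by Trim14 (61.9 CPM in lung and 141 in blood), an adaptor of antiviral signalling, and the small GTPase gene Arl4d (42.9 CPM in lung and 104 in blood). Bcl2l1, which encodes the survival protein Bcl-xL, had 41.7 CPM in lung and 88.6 in blood. Other members were the urea transporter Slc14a1 (32.8 CPM in lung and 74.4 in blood), the histone kinase Haspin (10.3 CPM in lung and 24.1 in blood), the glutathione transferase Gsta3 (8.71 CPM in lung and 20.9 in blood), Mypop (12 CPM in lung and 28.9 in blood), Slc26a10 (8.21 CPM in lung and 20.2 in blood), the adhesion receptor Crtam (32.9 CPM in lung and 69.2 in blood) and Nrros (42 CPM in lung and 88.1 in blood). The predicted or unnamed genes Gm10974, AI467606, Gm37004 and Gm36932 had log2 ratios between -1.56 and -1.36. Bcl2l1, Crtam, Nrros and Ms4a6c fell below 2-fold in at least 1 of 10 other ways of processing, as did Klf6, Klf9 and Il21r on the lung side. Ms4a6c, listed here as a monocyte marker, had 33.2 CPM in lung and 69.6 in blood. Its UMIs lay in 824 lung cells (17.6%) and 943 blood cells (34.3%), not in a few cells like those of Lyz2.

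Regulators of cell death pointed both ways. Of 11 measured genes, Bcl2l11, which encodes the death inducer Bim, had 418 CPM (95% CI 411 to 425) in lung and 90.7 CPM (95% CI 86.8 to 94.7) in blood, whereas Bcl2l1 was lower in lung. Bcl2a1d (23.5 CPM in lung and 10.4 in blood) was past the fold too, but it is a near-identical copy of its neighbours and uncertain. Bcl2 (872 CPM in lung and 774 in blood), Mcl1 (233 CPM in lung and 259 in blood) and Bax (125 CPM in lung and 127 in blood) lay within 2-fold. Bim and Bcl-xL oppose each other in the same pathway, and their transcripts had log2 ratios of 2.21 and -1.09.

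Several gene groups showed no member or only 1 past the fold, where over all genes 3.22% were past it in lung and 0.288% in blood. Of 9 measured heat shock and chaperone genes none reached 2-fold, at a median log2 ratio of 0.17 and a highest value of 0.45 (Dnaja1 with 441 CPM in lung and 322 in blood). Hspa1a and Hspa1b, which rise in heated or stressed cells, lay at 1.87 CPM in lung and 0.498 in blood and 4.06 CPM in lung and 2.49 in blood. None of 10 measured interferon-stimulated genes was past the fold, with 33.7 CPM in lung and 25.2 in blood for Isg15 and 37.6 CPM in lung and 24.1 in blood for Irf7, the highest ratio of this list. Nor was any of 8 secreted factors, where Xcl1 had 503 CPM in lung and 709 in blood and Ltb 38.4 CPM in lung and 62.3 in blood, of 14 genes of ribosome biogenesis (extreme: Dkc1 with 50.5 CPM in lung and 65.2 in blood), of 12 S100, galectin and annexin genes (extreme: Anxa6 with 281 CPM in lung and 341 in blood) or of 2 measured genes of the adenosine pathway (Adora2a with 104 CPM in lung and 76.7 in blood, Entpd1 with 173 CPM in lung and 131 in blood). Of 16 measured genes of glycolysis only Emb, listed there as a transporter chaperone, was past the fold. Of 9 cell cycle genes only Cenpa was (41.6 CPM in lung and 16 in blood), while Mki67 lay at 7.57 CPM in lung and 7.47 in blood. For these lists the ratios under 2-fold say only that no larger difference was seen in the summed counts.

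Further families were picked after the values had been seen, so their counts support nothing, and over all genes 3.22% were past the fold in lung. Of 6 RGS genes, which shorten G protein signals, 3 were past the fold in lung, Rgs1 (339 CPM (95% CI 333 to 345) in lung and 39.9 CPM (95% CI 37.3 to 42.6) in blood), Rgs2 (326 CPM in lung and 44.6 in blood) and Rgs16 (21.3 CPM in lung and 5.93 in blood). Of 9 phosphodiesterase genes, which break down cyclic nucleotides, 3 were past it, Pde4d (84.3 CPM in lung and 19.1 in blood), Pde4b (199 CPM in lung and 90.9 in blood) and Pde2a (274 CPM in lung and 109.6 in blood). Crem, which encodes a cAMP-responsive repressor, had 284 CPM (95% CI 279 to 290.0) in lung and 34.5 CPM (95% CI 32.1 to 37.1) in blood and was the only 1 of 8 CREB, ATF and CREM genes past the fold. Of 8 dual specificity phosphatase genes 3 were past it, Dusp1, Dusp5 (407 CPM in lung and 99.7 in blood) and Dusp16 (37.9 CPM in lung and 15.1 in blood). Of 5 BTG and TOB genes, which hold lymphocytes in rest, 4 were past it, among them Btg3 (152 CPM in lung and 65.6 in blood) and Tob1 (45.7 CPM in lung and 21.9 in blood), and of 4 ABCB transporters 3 were. Of 14 KDM histone demethylase genes 3 were, at a family median log2 ratio of -0.014. None of the measured genes of these families was past the fold on the blood side. Abcb1a and Abcb1b are close copies, and their split is uncertain.

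Most lung cells took part in the difference. It was read per cell with 221 genes that reached 20 CPM and were at least 2-fold higher in lung in the naive library, so that the 6 h cells did not choose the genes. Out of 3000 UMIs, these genes took a median of 132 in lung cells (5th to 95th percentile 59 to 194) and of 42 in blood cells (25 to 70). Of 4640 lung cells, 92.2% (95% CI 91.4 to 93) lay above the 95th percentile of blood. Of 2726 blood cells, 11.7% (95% CI 10.5 to 12.9) lay above the 5th percentile of lung. Cells with both tags had a median of 88, between the tissues. The 22 immediate early genes alone took a median of 15 UMIs in lung and 5 in blood, and the 14 NF-kB genes 5 and 3. For comparison, the 9 NK marker genes took 64 and 68, and the 19 granule genes 65 and 61. The 27 genes higher in blood in the naive library took 2 UMIs in lung and 6 in blood.

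**Figure D3:**
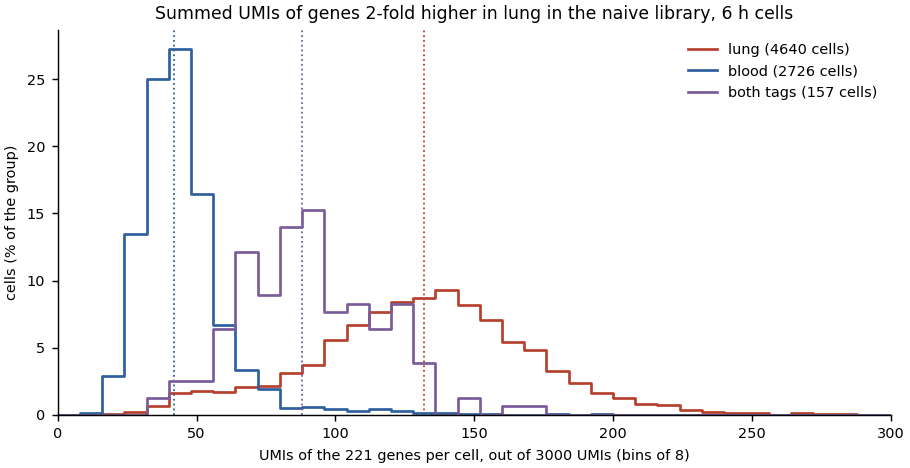
Histogram of the UMIs per cell, out of 3000, that fall on the 221 genes 2-fold higher in lung in the naive library, for lung, blood and both-tag cells of the 6 h library (y axis: % of the cells of each group; dotted lines: medians). Blood cells peak near 42, lung cells near 132, and cells with both tags lie between them with a median of 88.

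A minority of lung cells had sums like those of blood. At or below 70 UMIs, the 95th percentile of blood, lay 360 lung cells (7.76%), and 130 lung cells lay within 5 UMIs of that line, so it cuts a range and not a type. Their lung tag made up a median of 99.3% of tag counts, against 99.3% in the other lung cells. S1pr5, which is not among the 221 genes, was found in 38.6% of them, in 24.4% of the other lung cells and in 35.9% of the blood cells at or below the line. Itgam was found in 56.1%, 49.3% and 54.3%, and Ncr1 in 94.2%, 90.6% and 97.2%. Cd27 was found in 10.8%, 13.7% and 15.1%, and Gzma in 99.4%, 99.1% and 98.7%. Irf8 was found in 75.6%, 92.9% and 72.0%, and Emb in 9.72%, 26.7% and 12.3%. Zeb2 was found in 86.4%, 82.1% and 88.2%, and Klrg1 in 35.6%, 34.5% and 35.1%. A gene among the 221 tends to be low in cells with a low sum. The low-sum lung cells were nearer than the other lung cells to the blood cells at or below the line for S1pr5, Itgam, Ncr1, Irf8, Emb, Zeb2 and Klrg1. The 136 blood cells above the line are not in this comparison. For Irf8 and Emb, which were higher in lung, the direction may follow from choosing cells by a low sum. The 3 shares of Klrg1 were too close to give a direction. For Cd27 and Gzma the low-sum lung cells were farther from those blood cells. This line was drawn after the sums had been seen.

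The difference was also present in each of 4 groups of cells set by Cd27 and Itgam. Cells were split by a UMI of either gene after thinning, which is a coarse split, since many cells that carry a transcript show none of its UMIs. Cd27+ Itgam- cells were 8.41% of lung (95% CI 7.62 to 9.24) and 8.18% of blood cells (95% CI 7.18 to 9.27), and Cd27- Itgam+ cells 44.8% and 47.4%. Cells with both were 5.04% and 7.01%, and cells with neither 41.8% and 37.4%. Before thinning, Itgam had UMIs in 74.4% of lung and 77.0% of blood cells. The shares of the 4 groups thus depend on detection and do not measure the makeup of the tissues by maturation. In each of the 4 groups all 212 lung genes had a ratio above 0, and between 177 and 196 of them were at least 2-fold higher in lung, though they had been chosen in these same cells before the split. The median sum of the 221 genes lay between 131 and 136 in the 4 groups of lung cells and between 38 and 43 in those of blood.

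Single genes varied between these groups in different ways. Dusp1 had its highest log2 ratio, 5.00 (95% CI 4.46 to 5.59), in Cd27- Itgam+ cells. It had 3.95 (95% CI 3.51 to 4.43) in cells with neither, 4.41 (95% CI 3.25 to 5.88) in cells with both and 3.82 (95% CI 2.87 to 4.97) in Cd27+ Itgam- cells, and only the interval of the cells with neither stayed clear of the highest. Cxcr4 also had its highest log2 ratio, 4.46, in Cd27- Itgam+ cells. It had 3.25 in cells with neither, 3.52 in cells with both and 3.37 in Cd27+ Itgam- cells. Both peaks came with the lowest blood level of the 4 groups, 7.22 CPM (28 UMIs) for Dusp1 and 6.70 CPM (26 UMIs) for Cxcr4. In lung, Dusp1 lay between 191 and 231 CPM in the 4 groups. Lung Cxcr4 was lowest in Cd27- Itgam+ cells (147 CPM) and highest in Cd27+ Itgam- cells (232 CPM). Free RNA was not subtracted here. For Dusp1 in Cd27+ Itgam- blood cells the value rests on 9 UMIs. Vps37b had 3.29 (95% CI 3.01 to 3.58) in Cd27+ Itgam- cells and 2.5 (95% CI 2.26 to 2.74) in cells with both. It had 2.77 (95% CI 2.67 to 2.86) in Cd27- Itgam+ cells and 2.92 (95% CI 2.80 to 3.03) in cells with neither. Its lowest ratio was thus in cells with both, and no order along these groups was seen. On the blood side, Ncr1 had log2 ratios between -0.77 and -0.68 in all 4 groups, and Gzma stayed between 0.014 and 0.16.

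**Figure D4:**
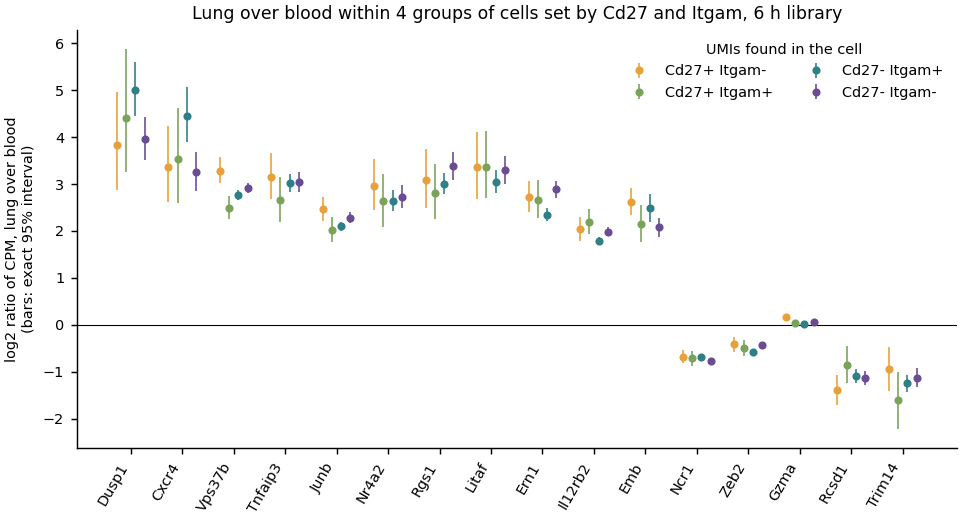
Log2 ratio of CPM of lung over blood (y axis, bars for the exact 95% interval) for 16 genes (x axis) in 4 groups of thinned cells, set by whether a UMI of Cd27 and of Itgam was found. All 11 genes from Dusp1 to Emb lie above 1 in each group, Gzma lies close to 0, and Ncr1, Zeb2, Rcsd1 and Trim14 lie below 0.

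Emb departed from the broad pattern, because few cells held most of it. Among 106 lung genes with a mean of at least 0.3 UMIs per thinned lung cell, it was the least evenly spread. It was found in 25.3% of lung cells, where the same UMIs spread evenly would reach 60.7%, a ratio of 0.417 against a median of 0.867 over the 106 genes. The 11.9% of lung cells with 3 or more UMIs held 80.5% of Emb UMIs. Only 1.43% of blood cells had 3 or more. In lung, Cd27 was found in 35.8% of the cells with 3 or more Emb UMIs and in 8.55% of those with none, and Itgam in 31.1% and 54.3%. The maturation marker Klrg1 was found in 11.4% and 41.2%, and Cables1 in 27.3% and 6.29%. Blood cells showed the same, with Cd27 in 41% of the 39 cells with 3 or more Emb UMIs and 12.7% of those with none, Itgam in 25.6% and 56.8%, and Klrg1 in 5.13% and 38.3%. Cells with more Emb thus had more Cd27 and less Itgam and Klrg1 in both tissues. In lung, Dusp1 was found in 43.9% and 39.6% of the cells with 3 or more and with no Emb UMI. After Emb, Gramd3 and Abcb1b had the lowest ratios. For abundant genes this ratio lies near 1 whatever their spread, so it ranks only genes of low or middle level.

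The same contrast was read in the other libraries, where lung and blood cells had been tagged and sorted alike. In the naive library, from mice without tumor cells, 220 (3.34%) of the same 6589 genes were at least 2-fold higher in lung and 26 (0.395%) in blood. In the 14-day library 162 (2.46%) and 25 (0.379%) were. Of the 212 lung genes of the 6 h library, 200 (94.3%) were at least 2-fold higher in naive lung, 121 (57.1%) in 14-day lung and 118 in both. The other libraries gave the same sign as 6 h for 212 of these genes (naive) and 209 (14 days). All 19 blood genes were past the fold in the naive library and 6 at 14 days. The libraries are from different mice, with 1 library per time point, so a difference between them was not tested.

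The ratios at 6 h were close to those of naive mice. The difference of log2 ratios, 6 h minus naive, lay between -0.23 and 0.21 for 95% of genes, and 3 of 6589 genes differed by 1 or more, namely Fosb, Pmepa1 and Lyz2. Fosb had a log2 ratio of 2.04 at 6 h and 0.81 in naive mice, and Pmepa1 2.07 and 3.18. Lyz2, whose UMIs lie in few cells, had -0.78 and 2.49. Dusp1 (4.42 and 4.46), Cxcr4 (3.52 and 3.56) and Tnfaip3 (3.07 and 3.16) had log2 ratios in the 6 h library close to those of the naive library. Fos had log2 ratios of 3.42 and 2.65, and Abcb1b 3.61 and 4.26. The immediate early list had a median log2 ratio of 1.57 at 6 h and 1.17 in naive mice. The NF-kB list had 0.66 and 0.42, and the glucocorticoid list 1.10 and 1.17. These medians lay above 0 in both libraries, and the difference between the libraries was not tested.

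Against 14 days the ratios differed more. The difference, 6 h minus 14 days, lay between -0.55 and 0.64 for 95% of genes, and 79 genes differed by 1 or more. The median log2 ratio of the 212 lung genes was 1.57 at 6 h, 1.63 in naive mice and 1.15 at 14 days. Because the genes were chosen at 6 h, their 6 h values are favoured in this comparison. Pmepa1 had a log2 ratio of 5.21 at 14 days, and Fosb 3.58, both above their 6 h values. Lower at 14 days than at 6 h were Gcnt2 (2.00), Cnnm2 (0.97, against 2.90) and Sgk1 (0.59), of which Cnnm2 was chosen after its values were seen. Cd69 had 0.70 at 6 h and 1.74 at 14 days on this scale, Tgfb1 0.61 and 1.77, and Xcl1 -0.50 and 1.30. The immediate early list had a median log2 ratio of 1.14 at 14 days, the NF-kB list 0.70 and the heat shock list 0.21. Hspa1a and Hspa1b, which were under 20 CPM at 6 h, had log2 ratios of 5.09 and 5.38 at 14 days.

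**Figure D5:**
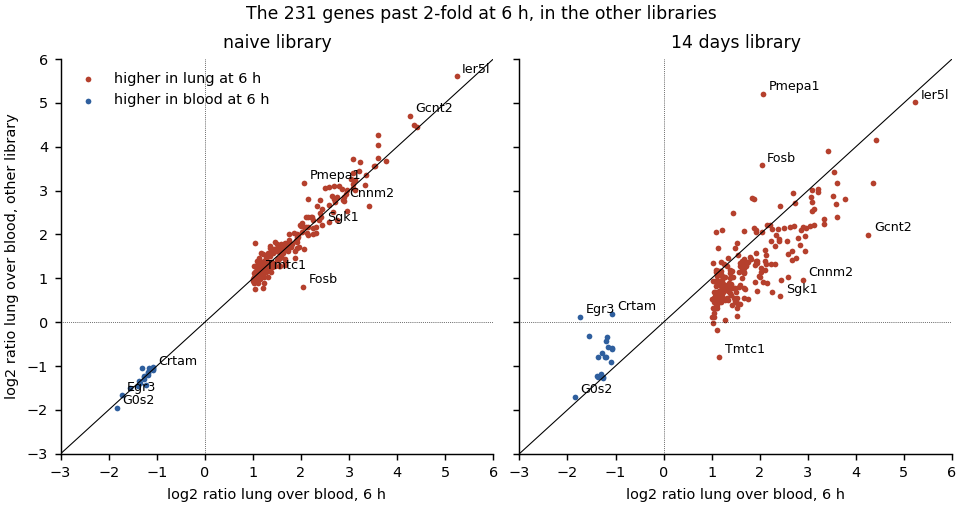
Log2 ratio of lung over blood of the 231 genes past 2-fold at 6 h (x axis) against the same ratio in the naive (left) and the 14-day library (right), with the line of equal values. In the naive library most points lie near the line, and Fosb and Pmepa1 lie farthest from it. At 14 days most of the 212 lung genes lie below the line and Pmepa1 and Fosb above it.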

How the data were processed

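Single-cell RNA sequencing libraries of sorted NK cells (1 per condition, with hashtag antibodies for lung and blood) were analysed from the unfiltered matrices. Per the file headers, the deposited UMI counts were made by the authors with Cell Ranger 7.1.0 (7.0.1 per the labels), and they are raw counts per barcode for 25906 genes and the 2 tags. The submitters' processing notes also name Seurat 5.0 and GRCm38.p6. Positions come from the GENCODE M21 annotation.

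Cells were chosen by detected genes, mitochondrial share and tag share, and their UMIs were summed per tissue (35922737 in lung, 22077755 in blood). Intervals are exact Poisson for CPM, exact binomial (Clopper-Pearson) for shares and exact conditional for ratios. A gene was past the fold at 2-fold with at least 20 CPM in the higher tissue. Cells were thinned to 3000 UMIs, leaving out 40 lung and 20 blood cells with fewer. No doublet caller was run. Low-level free RNA was estimated from barcodes with at most 100 UMIs. Tests between tissues were not made, with 1 library per condition. Python 3.11.15 (numpy 2.4.6, scipy 1.17.1, pandas 2.3.3, matplotlib 3.10.9) was used, and edgeR 4.0.16 in R 4.3.3 for TMM factors only. The interval code was tested on simulated data.

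Named genes were the 15 with the highest and the 15 with the lowest ratio, list members past the fold, the genes the study names, and the most extreme member of a list with none past the fold. Other names are marked as chosen after their values were seen or are shown as values of list members. The comparison, its members and the lists were chosen with earlier results of these data known. Alternatives were other cell filters, tag shares, totals, weights, minimum levels and folds, and subtraction of free RNA. Some genes of the lists are not reported here.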

Additional observations from a re-analysis of the deposited data

Results flagged for a closer look

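At 14 days, 3 of the 212 lung genes and 2 of the 19 blood genes of the 6 h library no longer had the 6 h sign. Tmtc1 and Crtam were flagged among them. Tmtc1 had a log2 ratio of lung over blood of 1.16 at 6 h (51.3 CPM in lung and 23 in blood), 1.13 in naive mice and -0.79 at 14 days. Crtam had -1.07 at 6 h, -1.06 in naive mice and 0.19 at 14 days. With 1 library per time point the difference was not tested.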

How the results depend on the processing

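No paired analysis was possible because each condition is 1 library and no comparison was tested. All genes were compared again under 10 other settings, 9 planned and 1 added after seeing the data. They gave 201 to 252 genes higher in lung, against 212, and 14 to 24 higher in blood, against 19. Of the 231 genes past the fold, 211 kept a 2-fold ratio in each of the 10 settings, 20 fell below 2-fold in at least 1, and none changed sign. These counts leave the minimum of 20 CPM aside. With that minimum applied as well, the TMM factors kept 14 of the 19 blood genes. Thinning to 3000 UMIs then kept 195 of the 212 lung genes and 17 of the 19 blood genes. The TMM factors gave 252 and 14, moving the median log2 ratio of all genes by 0.11, from -0.090 to 0.022, so ratios within that distance of 0, among them those of Ccr2 and Cd27, have no direction. With free RNA subtracted the counts were 230 and 24, and the log2 ratio of Dusp1 became 6.42. That of Ier5l became 7.82, a value set by a floor of 3 UMIs in blood. With a minimum of 10 CPM 251 genes were higher in lung and 35 in blood, and with 50 CPM 154 and 11. With a fold of at least 1.5 the counts were 403 and 164. Depth limited the ratios of genes with few UMIs in blood, such as Ier5l (95% CI 4.59 to 5.98 on the log2 scale), and the spread between mice was not measured.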
